A study of Homo sapiens with 24 samples.

Results

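KG1a, a human acute myeloid leukaemia line with an immature, CD34-positive phenotype, was compared with and without metformin on 6 of the 24 arrays of the series. The members are the genes measured on those arrays. Every array row with 1 annotated gene symbol was taken, and where a gene had several rows the row with the highest mean over the 24 arrays stood for it, which gave 14884 genes. Of these, 10641 had at least 1 of the 8 group means at or above 4.02, the median of all deposited values, and were tested, and the other 4243 were too dim for a test. Values are normalized signals on a log2 scale, so a difference of 1 is a doubling.

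The series covers 4 leukaemia lines, KG1a, HL60, MOLM14 and U937, each with 3 control and 3 metformin arrays lettered A to C. Control cells (Ctrl) received no metformin, and treated cells (Met) received 10 mM metformin for 24 h in the same culture conditions, with penicillin and streptomycin in every group. The study's design describes metformin as an inhibitor of respiratory complex I and aimed at genes that mark high oxidative phosphorylation (OXPHOS). Control KG1a is labelled high OXPHOS, as is MOLM14, whereas HL60 and U937 carry the low OXPHOS label. Each group is a single established line, and nothing in the labels states that arrays A to C were grown apart. The p-values therefore reflect array-to-array spread, which may be technical. The number of arrays limits the precision.

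Metformin slows electron entry into the respiratory chain, which lowers ATP production by mitochondria and the supply of oxidized NAD and aspartate. Cells commonly answer such a block through the integrated stress response, in which the transcription factor ATF4 raises enzymes of serine and asparagine synthesis and the aminoacyl-tRNA synthetases that charge tRNAs. Faster glycolysis also drains the sugar phosphates that keep the factor MondoA on the genes TXNIP and ARRDC4, and low energy charge activates the kinase AMPK, which restrains sterol and fatty acid synthesis and ribosome production. These are general properties of the drug class and not measurements of these arrays.

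The 6 arrays resembled each other and carried part of the progenitor markers. Medians of the KG1a arrays lay between 4.0 and 4.05, correlations within a group lay between 0.988 and 0.991, and at most 4 of 53617 rows were identical between arrays of one group. CD34, the surface antigen of haematopoietic progenitors, averaged 11.24 in control and 11.28 in metformin cells, and CD7 averaged 7.61 and 7.44, whereas FLT3 (3.28 in control cells), MEIS1 (3.52), PROM1 (4.02) and KIT (4.17) were near or below the median of all values. Of the myeloid markers, 6 of 11 granulocytic and 7 of 10 monocytic genes were below the median of all values in both KG1a groups. Among these were the granule genes MPO (3.26 in control cells) and LYZ (3.46). Others were above it, with CSF3R (4.74) the highest granulocytic and CD68 (5.04) the highest monocytic gene in control cells. Of the lymphoid markers, NKG7 (7.77), ZAP70 (6.96) and PRF1 (6.13) were high in control KG1a, whereas the natural killer marker GNLY (3.24) and the T cell kinase LCK (3.60) were not. None of the 48 tested marker genes of progenitor, granulocytic, monocytic, T, NK, B, erythroid or megakaryocytic cells passed the test of the metformin response. In HL60 and U937, 3 arrays (HL60 Ctrl C, U937 Ctrl C and U937 Met A) agreed less well with their groups.

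In KG1a, metformin raised 3 genes of serine synthesis and 5 of tRNA charging and lowered the sugar-responsive arrestins TXNIP and ARRDC4. Of 10641 genes, 265 passed the test, which is 2.49% of those tested (limma, Benjamini-Hochberg adjusted p under 0.05). Of these, 87 were higher (0.818%) and 178 lower (1.67%), but which direction held more genes depended on single arrays. There were 66 higher and 66 lower without control array A, 54 higher and 44 lower without metformin array A, and 42 higher and 41 lower in a fit of the 6 KG1a arrays alone. Quantile normalization gave 132 higher and 191 lower. Most of the changes were small. The median size of a passing change was 0.42 (log2) and the smallest was 0.24, while 41 genes reached 1.5-fold and 3 reached 2-fold, namely PSAT1, ARRDC4 and TXNIP. At an unadjusted p under 0.05 the number was 1642. Every metformin array was above every control array in 86 of the 87 higher genes, against 7.31% of all tested genes, and below in 177 of the 178 lower genes, against 13.7%. The exceptions were STAG3L3, named after its values were seen, and MRTO4. The passing genes were picked from these same arrays, so their separation is not separate support. The median change of all tested genes was -0.02, with 43.5% of them above 0. Of the 265, 238 are protein-coding, 13 long noncoding, 6 microRNA, 6 pseudogene and 2 small nuclear RNA genes. The number that passed rested on single arrays. It was 132, 138 and 97 without control array A, B or C, 98, 152 and 170 without metformin array A, B or C, 83 in a fit of the 6 KG1a arrays alone, and 470 without the 3 arrays of other lines that agreed less well. In all 6 leave-outs of a KG1a array, 58 of the 265 genes passed (30 higher, 28 lower).

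**Figure D1:**
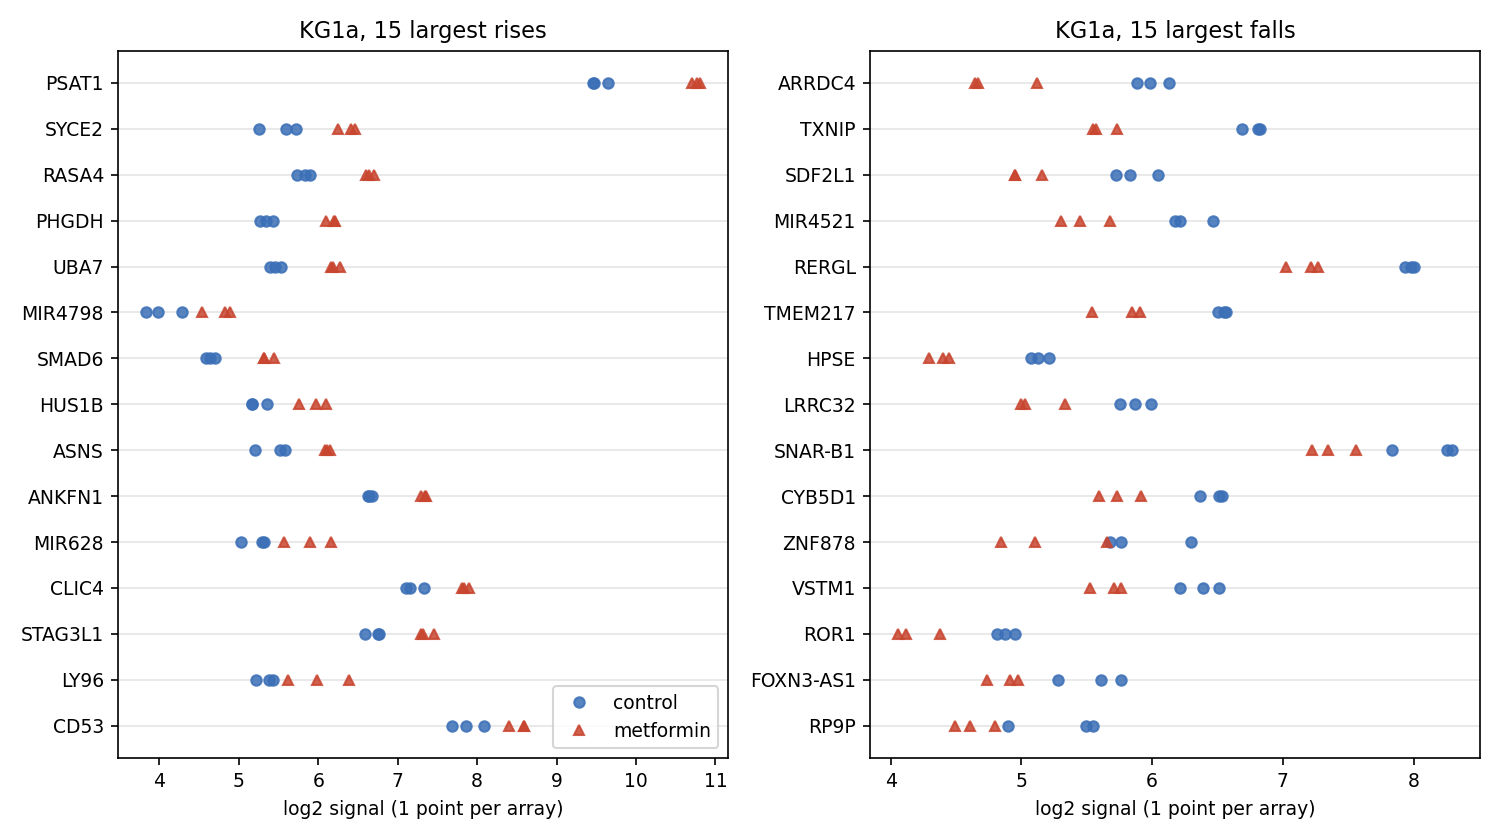
Log2 signal of the 15 largest rises (left) and 15 largest falls (right) among genes that passed the test in KG1a and whose groups do not overlap. Each blue circle is 1 of 3 control arrays and each red triangle 1 of 3 metformin arrays. PSAT1 moves from 9.46 to 9.64 in control cells to 10.70 to 10.81 with metformin, and ARRDC4 from 5.89 to 6.13 down to 4.65 to 5.12.

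The serine pathway gave the clearest rise. PHGDH, which takes 3-phosphoglycerate out of glycolysis, PSAT1, the aminotransferase that follows it, and PSPH, the phosphatase that releases serine, all passed the test, so 3 of the 5 tested genes of serine and glycine synthesis rose and 0 fell. That is 60.0% higher, against 0.818% of all tested genes, and the median change of the 5 was 0.37. PSAT1 read 9.47, 9.64 and 9.46 on control arrays A, B and C and 10.70, 10.76 and 10.81 on metformin arrays A, B and C. All 3 metformin arrays were more than 1 unit above every control array. PSAT1 rose by 1.23 ± 0.07 (log2, SE, n = 3 arrays per group), which is 2.35-fold (limma adjusted p = 4.27e-11).

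PHGDH read 5.43, 5.27 and 5.34 in control cells and 6.09, 6.2 and 6.21 with metformin. The groups were well apart and the rise was 0.82 ± 0.08 (limma adjusted p = 1.30e-06). PHGDH started low in KG1a, since the control means in HL60, MOLM14 and U937 were 8.26, 7.98 and 7.74. PSPH read 7.26, 7.12 and 7.25 in control and 7.51, 7.58 and 7.66 in metformin cells, a rise of 0.37 ± 0.09 (limma adjusted p = 0.0235) that did not pass without control array B or C or without metformin array B or C. Of the enzymes that turn serine into glycine, mitochondrial SHMT2 was 0.25 ± 0.07 higher without passing (limma adjusted p = 0.0714), and cytosolic SHMT1 was at -0.26. None of the 7 tested folate-cycle genes passed, and their changes lay between -0.17 (TYMS, which makes thymidylate) and 0.07 (MTHFD2L).

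Asparagine synthetase and some of the tRNA synthetases rose as well. ASNS read 5.20, 5.58 and 5.51 in control cells and 6.09, 6.11 and 6.14 with metformin. The metformin arrays were nearly equal and all above the control arrays, and the rise was 0.68 ± 0.08 (limma adjusted p = 4.74e-05). Of 17 tested cytosolic aminoacyl-tRNA synthetases, 5 rose and 0 fell (29.4% higher, against 0.818% of all tested genes). In 11 of the 17 every metformin array was above every control array, against 7.31% of all tested genes. The median change of the 17 was 0.16.

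GARS1, which charges glycine tRNA, read 8.67, 8.74 and 8.82 in control and 9.40, 9.28 and 9.32 in metformin cells, a rise of 0.59 ± 0.08 (limma adjusted p = 1.40e-04). AARS1, for alanine, read 9.78, 9.81 and 9.79 and then 10.22, 10.28 and 10.38, a rise of 0.50 ± 0.07 (limma adjusted p = 1.40e-04). In both genes the groups were far apart relative to their own spread. CARS1 (0.52 ± 0.10, cysteine), WARS1 (0.47 ± 0.07, tryptophan) and MARS1 (0.38 ± 0.08, methionine) also passed, MARS1 being named after its values were seen, as were SHMT1, the other MCM subunits and a few genes given for context. At the other end of the group, NARS1 was 0.23 higher without passing (limma adjusted p = 0.0712), RARS1 was at -0.07 and VARS1 at -0.19.

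The promoters of 2 of these genes are shown because they hold the letters TGATGNAA, the core of the amino acid response element that ATF4 complexes recognise, and that of ARRDC4 because it holds CACGTG, the E-box core read by MondoA and other basic helix-loop-helix factors. Sequences are from RefSeq (GRCh38.p14), written 5′ to 3′ on the strand of the gene with the matched letters in capitals. The ASNS stretch is chr7:97872429-97872516 on the minus strand, with the match 68 bases before the annotated start. The AARS1 stretch is chr16:70289646-70289733 on the minus strand, with the reverse complement of the motif 187 bases before the start, and the ARRDC4 stretch is chr15:97960453-97960538 on the plus strand, with the match 210 bases before the start.
ASNS: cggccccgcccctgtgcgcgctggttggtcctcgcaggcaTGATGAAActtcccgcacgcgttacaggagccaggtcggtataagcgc
AARS1: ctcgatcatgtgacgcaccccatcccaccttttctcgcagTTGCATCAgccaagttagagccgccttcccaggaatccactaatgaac
ARRDC4: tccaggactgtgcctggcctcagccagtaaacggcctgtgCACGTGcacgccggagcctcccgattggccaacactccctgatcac

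Searched on both strands, windows of 250 bases before to 50 bases after the start held TGATGNAA in 3.62% of all 35116 RefSeq promoters and in 2.66% of the 8077 tested genes with a window. The motif was present in 4 of 5 synthetases that rose in KG1a (AARS1, CARS1, GARS1 and MARS1) and in 3 of 9 that did not pass (IARS1, NARS1 and TARS1). On the list of integrated stress response genes it was in 2 of 5 that rose (ASNS and AARS1) and 3 of 18 that did not pass. Among all passing genes with a window it was in 8 of 62 higher genes (12.9%) and 3 of 141 lower genes (2.13%). CACGTG was in 7.26% of all promoters, in 12.2% of the tested genes, in 4 of 62 higher genes and in 22 of 141 lower genes. A match only says that the letters are there.

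Much of the wider ATF4 programme did not pass in KG1a. Of 27 tested genes on the integrated stress response list, 6 rose (ASNS, PSAT1, PSPH, PHGDH, AARS1 and WARS1) and 0 fell. That is 22.2% higher, against 0.818% of all tested genes. Metformin arrays were entirely above control arrays in 13, against 7.31% of all tested genes. Both KG1a group means were under 4.02 in 7 of the 27. The median change of the 27 was 0.19. ATF4 itself, whose control is largely translational, read 8.39, 8.60 and 8.48 in control and 8.39, 8.60 and 8.63 in metformin cells. The 2 groups overlapped almost fully, with a difference of 0.05 ± 0.10 (95% interval -0.15 to 0.25).

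DDIT3, which encodes the stress factor CHOP, read 3.44, 3.69 and 3.17 in control and 3.34, 3.5 and 3.56 in metformin KG1a, all below the median of all values. CTH, the enzyme that makes cysteine from cystathionine, read 5.33, 5.07 and 5.49 and then 5.04, 5.08 and 4.90, with overlapping groups and a difference of -0.29 ± 0.13 (limma adjusted p = 0.266). DDIT4, an inhibitor of mTORC1, differed by -0.07 ± 0.11, ATF5 by -0.12 ± 0.12 and TRIB3 by 0.13 ± 0.09, none of which passed. The 2 with the largest positive change short of the threshold were ULBP1, a ligand of the NKG2D receptor (0.61 ± 0.18, limma adjusted p = 0.0831), and SESN2, a stress-induced brake on mTORC1 (0.37 ± 0.12, limma adjusted p = 0.118), and both averaged under 4.02 in control cells. ULBP1 passed in the fit of the KG1a arrays alone (limma adjusted p = 0.0197). In ULBP1, SESN2 and VEGFA the metformin arrays were nevertheless all above the control arrays.

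The sharpest falls were in the alpha-arrestins TXNIP and ARRDC4, which limit glucose uptake and are classic targets of MondoA. ARRDC4 read 6.13, 5.99 and 5.89 in control and 4.65, 4.66 and 5.12 in metformin cells, and TXNIP read 6.69, 6.83 and 6.81 and then 5.57, 5.55 and 5.73. In both genes every metformin array was far below the lowest control array. ARRDC4 fell by 1.19 ± 0.15 (limma adjusted p = 4.74e-05) and TXNIP by 1.16 ± 0.12 (limma adjusted p = 3.41e-06), and the other row annotated to TXNIP gave -1.12. The remaining 5 tested genes of that list, including the related arrestin ARRDC3 (0.07 ± 0.14), HK2 (0.02 ± 0.10) and MondoA's own gene MLXIP (-0.07), did not pass. Glycolytic genes did not pass either (0 of 9), although 8 of 9 changes were below 0, from PGAM1 at -0.33 to HK2 at 0.02, and LDHA, which makes lactate, was at -0.18 ± 0.12.

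**Figure D2:**
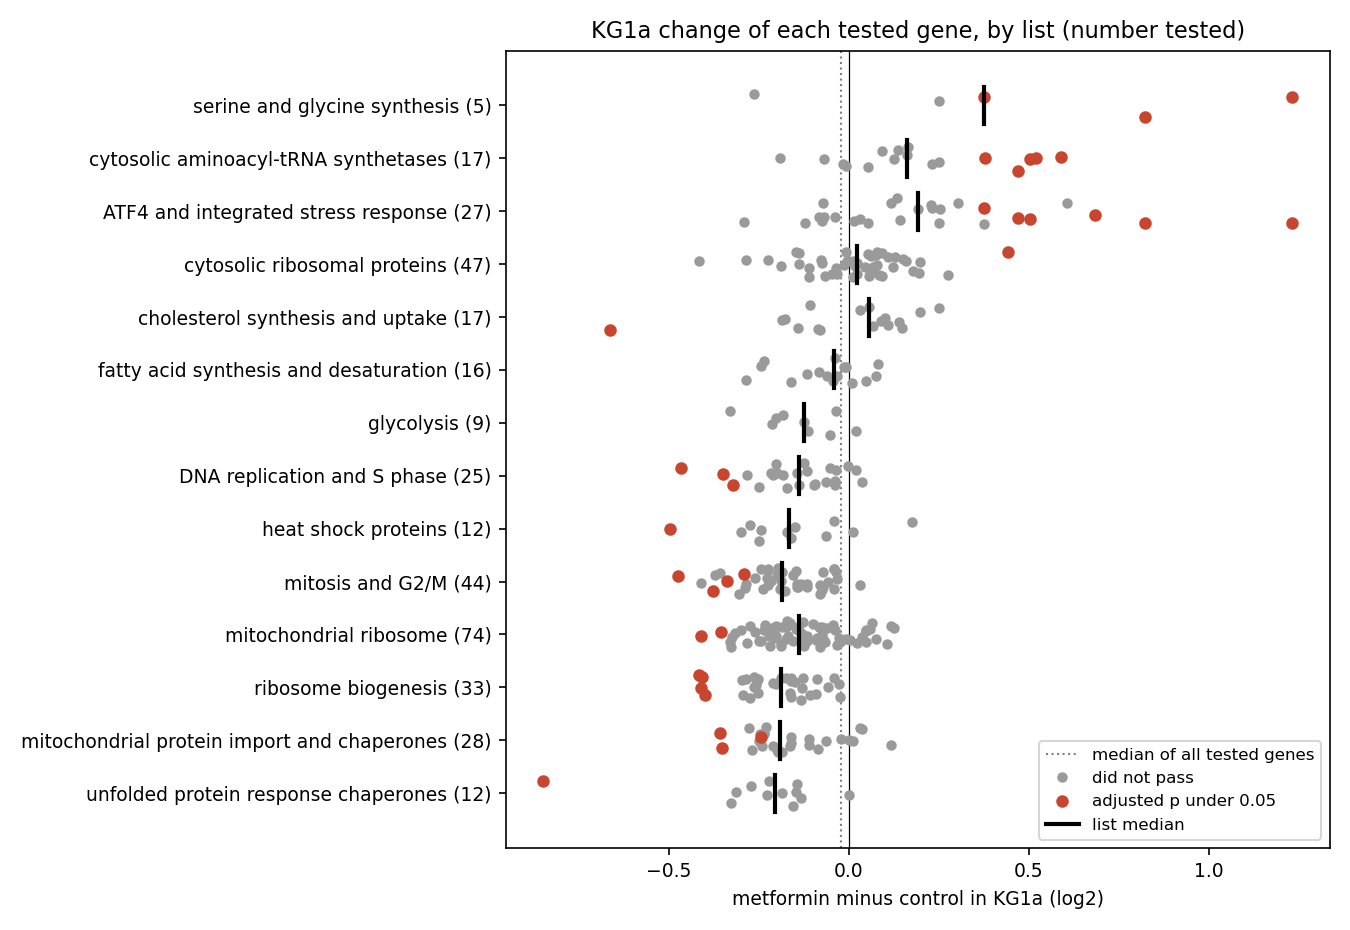
Change with metformin in KG1a (log2, metformin minus control) of each tested gene in 14 lists, with the number tested in brackets. Red points passed the test, grey points did not, black bars are list medians and the dotted line is the median of all tested genes at -0.02. The synthetase and ATF4 lists share members. All 33 ribosome biogenesis genes lie left of 0, with 4 past the threshold.

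Genes of growth and division mostly had small changes below 0, and few of them passed. All 33 tested ribosome biogenesis genes had a change below 0, with a median of -0.19 against -0.02 for all tested genes, and this held with quantile normalization (median -0.17) and with centred arrays (-0.20). Of the 33, 20 had metformin arrays wholly below control arrays (13.7% of all tested genes did). The 4 that passed (12.1%, against 1.67% of all tested genes) were RRP12, BOP1, GRWD1 and MRTO4. These process ribosomal RNA or assemble the large subunit. RRP12 read 6.58, 6.70 and 6.68 in control and 6.08, 6.36 and 6.32 in metformin cells, a fall of 0.40 ± 0.08 (limma adjusted p = 0.00647). BOP1 differed by -0.41 ± 0.10 and GRWD1 by -0.41 ± 0.11, with groups that did not overlap, while the groups of MRTO4 (-0.42 ± 0.10) overlapped. The 4 calls became 0 without metformin array A, 1 without control array B or C, and 2 without control array A or metformin array B, and none of the 4 passed in a fit of the KG1a arrays alone. By contrast, cytosolic ribosomal protein genes had a median of 0.02, with 28 of 47 above 0, and 1 passed, RPL37A (0.44 ± 0.10), a gene with many processed copies in the genome. RPL37A did not pass without control array B or C or without metformin array B or C, nor in the fit of the KG1a arrays alone.

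In the mitosis list 43 of 44 changes were below 0 and the median was -0.19. In 28 of 44 every metformin array was below every control array, against 13.7% of all tested genes. The 4 that passed (9.09%, against 1.67% of all tested genes) were the mitotic cyclins CCNB1 (-0.34 ± 0.08) and CCNA2 (-0.29 ± 0.07), the kinase PLK1 (-0.38 ± 0.08) and the kinetochore protein NDC80 (-0.47 ± 0.11). PLK1 read 10.27, 10.07 and 10.11 in control and 9.63, 9.85 and 9.83 in metformin cells, and NDC80 read 8.67, 8.64 and 8.65 and then 8.18, 8.15 and 8.21. Neither gene's groups overlapped. Without control array A or metformin array A the count of 4 became 0, without control array C it became 1, and without control array B or metformin array B it became 2. RNA came from whole cultures, so fewer dividing cells and less RNA per cell cannot be told apart.

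Among 25 genes of DNA replication, 23 were below 0, with a median of -0.14 against -0.02 for all tested genes. Of all tested genes, 43.5% were above 0. As lower, 3 of the 25 passed, against 1.67% of all tested genes. MCM7, a subunit of the replicative helicase, read 8.09, 8.06 and 8.10 in control and 7.49, 7.65 and 7.71 in metformin cells. The control arrays were almost equal and the metformin arrays all lay beneath them, a fall of 0.47 ± 0.07 (limma adjusted p = 2.18e-04) that passed in every leave-out. CCNE1, cyclin E1 (-0.35 ± 0.08), did not pass without control array B or C or metformin array A, and E2F8, an atypical E2F repressor (-0.32 ± 0.09), lost its call whichever array was left out, so the count of 3 became 1 or 2. The other helicase subunits did not pass, with MCM5 at -0.20, MCM2 at -0.14, MCM6 at -0.04, MCM3 at 0.00 and MCM4 at 0.02. MYC, which drives much of this programme, was at 0.08 ± 0.09.

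Mitochondrial genes mostly had changes below 0, with few calls. The mitochondrial ribosome had 62 of 74 genes below 0 (median -0.14) and 2 that passed, MRPL1 (-0.41 ± 0.10) and MRPL58 (-0.36 ± 0.08). Protein import had 23 of 28 below 0 (median -0.19) and 3 that passed, the translocase subunits TOMM40 (-0.35 ± 0.09) and TOMM6 (-0.36 ± 0.09) and the chaperone TRAP1 (-0.24 ± 0.07). Of all tested genes 1.67% passed as lower, so 2 of 74 (2.7%) is near that share, while 3 of 28 is 10.7%. The median change of all tested genes was -0.02, with 43.5% of them above 0. The ribosome and import counts both dropped to 0 when any 1 control array or metformin array A was left out. Without metformin array C neither MRPL1 nor MRPL58 passed, and 1 other ribosome gene did. Without metformin array B the import count was 1. Of 40 genes of respiratory complexes II to IV and their assembly, 2 passed (5.0%), the assembly factors SDHAF3 (-0.43 ± 0.10) and COA3 (-0.39 ± 0.10), with a median of -0.07. That count of 2 became 1 with quantile normalization or centred arrays, 0 without control array B or C, and 1 without any other single array. Only 2 complex I genes were tested here, the assembly factors NDUFAF7 (-0.03) and NDUFAF8 (-0.28), and neither passed. DLAT, a core of pyruvate dehydrogenase, read 9.36, 9.47 and 9.26 and then 9.08, 9.03 and 9.12. It was the 1 of 11 tested citrate cycle genes (9.09%) that passed (-0.29 ± 0.07, limma adjusted p = 0.0353). Its call was kept only without control array C.

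In the endoplasmic reticulum, SDF2L1, a cofactor of the chaperone BiP, read 6.04, 5.83 and 5.73 in control and 4.95, 5.16 and 4.95 in metformin cells. The groups were well apart, and the fall was 0.85 ± 0.13 (limma adjusted p = 5.64e-04). It was the only 1 of 12 tested unfolded protein response genes to pass, while 11 of 12 changes were below 0 (median -0.20, MANF at -0.33, XBP1 at -0.23). Of the heat shock proteins, HSPH1, a nucleotide exchange factor for HSP70, read 9.52, 9.49 and 9.65 and then 8.98, 9.10 and 9.10, a fall of 0.50 ± 0.08 (limma adjusted p = 5.98e-04), and the other 11 did not pass.

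BNIP3, a receptor for the removal of mitochondria by autophagy and a hypoxia gene, read 7.30, 7.37 and 7.44 in control and 6.58, 6.79 and 6.87 in metformin cells, without overlap. It fell by 0.62 ± 0.10 (limma adjusted p = 8.40e-04) and was the 1 of 15 hypoxia genes that passed. PRDX1, a peroxiredoxin (-0.30 ± 0.08), and PLK2, a kinase induced by p53 (-0.41 ± 0.08), were the single passing genes of 14 oxidative defence and 12 p53 genes. PRDX1 lost its call whichever of the 6 arrays was left out, and PLK2 lost its call without control array C and without metformin array A. None of the 24 genes of AMPK and mTORC1 regulation passed.

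Outside amino acid metabolism, 2 interferon-inducible genes were among the rises. UBA7, the enzyme that activates the ubiquitin-like protein ISG15, read 5.54, 5.45 and 5.39 in control and 6.28, 6.16 and 6.19 in metformin cells, and XAF1, an interferon-inducible apoptosis factor, read 6.59, 6.67 and 6.72 and then 7.20, 6.98 and 7.19. In neither gene did the groups overlap. UBA7 rose by 0.75 ± 0.10 (limma adjusted p = 9.05e-05) and XAF1 by 0.46 ± 0.08 (limma adjusted p = 0.00131), and they were the 2 passing genes of 34 interferon-inducible genes (5.88%, against 0.818% of all tested genes passing as higher), whose median was 0.07. ISG15 itself was at -0.12 and IFIT1 at -0.05. ERAP2, which trims peptides for antigen presentation, rose by 0.55 ± 0.10 (limma adjusted p = 0.00210), and CTSS, a lysosomal protease, by 0.54 ± 0.11, although CTSS did not pass without metformin array A.

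CLIC4, an intracellular chloride channel protein, read 7.15, 7.33 and 7.10 in control and 7.81, 7.84 and 7.90 in metformin cells, a rise of 0.66 ± 0.09 (limma adjusted p = 9.93e-05). SMAD6, an inhibitor of BMP signalling, rose from 4.70, 4.59 and 4.64 to 5.31, 5.31 and 5.44 (0.71 ± 0.14, limma adjusted p = 0.00472). Both were clear of their control values on every array. SYCE2, a component of the synaptonemal complex of meiosis, rose by 0.85 ± 0.12, and HUS1B, a relative of the checkpoint clamp subunit HUS1, by 0.71 ± 0.13. LY96, the TLR4 partner MD-2, was 0.65 ± 0.13 higher but did not pass without control array A or metformin array C, and TLR4 itself was at -0.04. RASA4, a calcium-dependent RAS GTPase-activating protein, rose by 0.82 ± 0.11 on the row used, yet its 9 rows ranged from -0.13 to 0.96 and a near copy of the gene exists, so this value is uncertain. The pseudogene STAG3L1, which has close relatives, is uncertain for the same reason (0.65 ± 0.15).

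The 30 largest changes included 3 microRNA loci, and their mature sequences are printed to show which seeds they would supply. The array rows are annotated to the locus and do not tell the precursor from the mature form. Sequences and positions are from RefSeq (GRCh38.p14), 5′ to 3′, with the seed, bases 2 to 8, in capitals. MIR4521 gives 1 mature form at chr17:8186948-8186969 on the plus strand, and the other 2 loci give 1 from each arm.
hsa-miR-4521: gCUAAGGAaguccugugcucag
hsa-miR-4798-5p: uUCGGUAUacuuugugaauugg
hsa-miR-4798-3p: aACUCACGaaguauaccgaagu
hsa-miR-628-5p: aUGCUGACauauuuacuagagg
hsa-miR-628-3p: uCUAGUAAgaguggcagucga

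No seed was shared between the 5 sequences. MIR4521 read 6.18, 6.47 and 6.21 in control and 5.45, 5.68 and 5.30 in metformin KG1a, below every control array, and fell by 0.81 ± 0.11 (limma adjusted p = 1.40e-04), with -0.46 on its other row. MIR628 read 5.29, 5.03 and 5.31 and then 6.16, 5.57 and 5.89, and MIR4798 read 3.83, 3.99 and 4.28 and then 4.53, 4.83 and 4.88, so the groups of each were apart, by less than the spread within them. Both passed (0.67 ± 0.17 and 0.72 ± 0.17, limma adjusted p = 0.0299 and 0.0241), but neither passed in every leave-out. MIR628 was kept only without metformin array B, and MIR4798 only without control array C or metformin array A.

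Several surface and signalling genes were among the largest falls. RERGL, a small RAS-like protein, read 7.98, 8.0 and 7.93 in control and 7.02, 7.21 and 7.27 in metformin cells, a fall of 0.80 ± 0.10 (limma adjusted p = 4.14e-05). LRRC32, which displays latent TGF-beta on the cell surface, read 5.87, 5.99 and 5.76 and then 5.03, 5.33 and 5.00 (-0.75 ± 0.10, limma adjusted p = 1.40e-04). In neither gene did the groups come near each other. HPSE, heparanase (-0.76 ± 0.11), VSTM1, an inhibitory leukocyte receptor (-0.71 ± 0.13), ROR1, a receptor for WNT5A (-0.69 ± 0.10), and TMEM217 (-0.78 ± 0.12) also fell and passed in every leave-out, as did CYB5D1 (-0.72 ± 0.13) and FOXN3-AS1 (-0.68 ± 0.12). ZNF878 (-0.71 ± 0.19), the pseudogene RP9P (-0.68 ± 0.16) and SNAR-B1 (-0.75 ± 0.16), 1 of a family of near-identical small RNAs whose level is therefore uncertain, each lost their call without control array A, without control array C and in at least 1 further leave-out.

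The response of KG1a differed from the mean response of the other 3 lines in sterol synthesis and in much of the ATF4 programme. In both, fewer genes differed from MOLM14 than from HL60 or U937. The test was of the KG1a change minus the mean change of HL60, MOLM14 and U937, and 358 genes passed (3.36% of those tested), 99 with a higher difference (0.93%) and 259 with a lower one (2.43%). With quantile normalization the split was 178 higher and 233 lower. Of the 358, 293 had not passed in KG1a itself. KG1a also had fewer passing genes than HL60 (2666, 25.1%), U937 (1830, 17.2%) or MOLM14 (538, 5.06%). The count of 358 was 142 with HL60 left out of the mean and 621 with MOLM14 left out, and it was 186 without KG1a control array A, 231 without control array C and 201 without metformin array B. Without the 3 arrays of other lines that agreed less well it was 416.

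Most cholesterol synthesis genes passed as lower in the other lines, and 1 did in KG1a. Of 17 tested genes of sterol synthesis and uptake, 15 passed as lower in HL60, 11 in MOLM14 and 14 in U937, with median changes of -0.96, -0.38 and -0.65. In KG1a the median was 0.06, 10 of 17 were above 0, and only PMVK, phosphomevalonate kinase, passed. PMVK read 6.01, 6.06 and 6.04 in control and 5.03, 5.40 and 5.68 in metformin cells (-0.66 ± 0.14, limma adjusted p = 0.0143) and did not pass without control array B or C or metformin array A. The difference between KG1a and the mean of the others passed for 13 of the 17, all higher in KG1a (12 with centred arrays). Of all tested genes, 0.93% passed as higher. Against single lines, 13 differed from HL60, 7 from MOLM14 and 9 from U937.

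INSIG1, which holds the sterol sensor SCAP in the endoplasmic reticulum, read 8.37, 8.47 and 8.28 in control and 8.05, 8.40 and 8.34 in metformin KG1a, with overlapping groups. Its change was -0.11 ± 0.09 (95% interval -0.30 to 0.08), against -1.70 in HL60, -1.16 in MOLM14 and -2.12 in U937, and the difference was 1.55 ± 0.11 (limma adjusted p = 3.16e-09). HMGCS1, which makes HMG-CoA, read 8.11, 8.23 and 8.14 and then 8.27, 8.28 and 8.13, a change of 0.07 ± 0.10 (95% interval -0.14 to 0.28), against -2.34, -0.54 and -1.07. SQLE, squalene epoxidase, was among the brightest of these genes in KG1a, at 9.89, 10.01 and 9.93 in control and 10.09, 9.94 and 10.10 in metformin cells, again with overlap. The difference of SQLE from the mean of the others was 0.94 ± 0.09 (limma adjusted p = 5.27e-07).

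MSMO1, ACAT2, IDI1 and DHCR7, further enzymes of the pathway, had differences between 0.90 and 1.15, and none passed in KG1a itself. In fatty acid synthesis 0 of 16 genes passed in KG1a, and the difference passed for 4 as higher and 1 as lower. Among all tested genes it passed for 0.93% as higher and 2.43% as lower. FASN, fatty acid synthase, read 8.22, 8.04 and 8.09 in control and 7.70, 7.98 and 7.82 in metformin KG1a. These groups did not overlap, and the change was -0.29 ± 0.08 (limma adjusted p = 0.0559), against -1.49 in HL60, -0.54 in MOLM14 and -1.16 in U937. SCD, the desaturase, was at -0.12 ± 0.08 in KG1a. Outside lipids, ANXA1, annexin A1, and EMP3, a membrane protein, also had a higher difference (0.93 ± 0.11 and 0.87 ± 0.10).

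**Figure D3:**
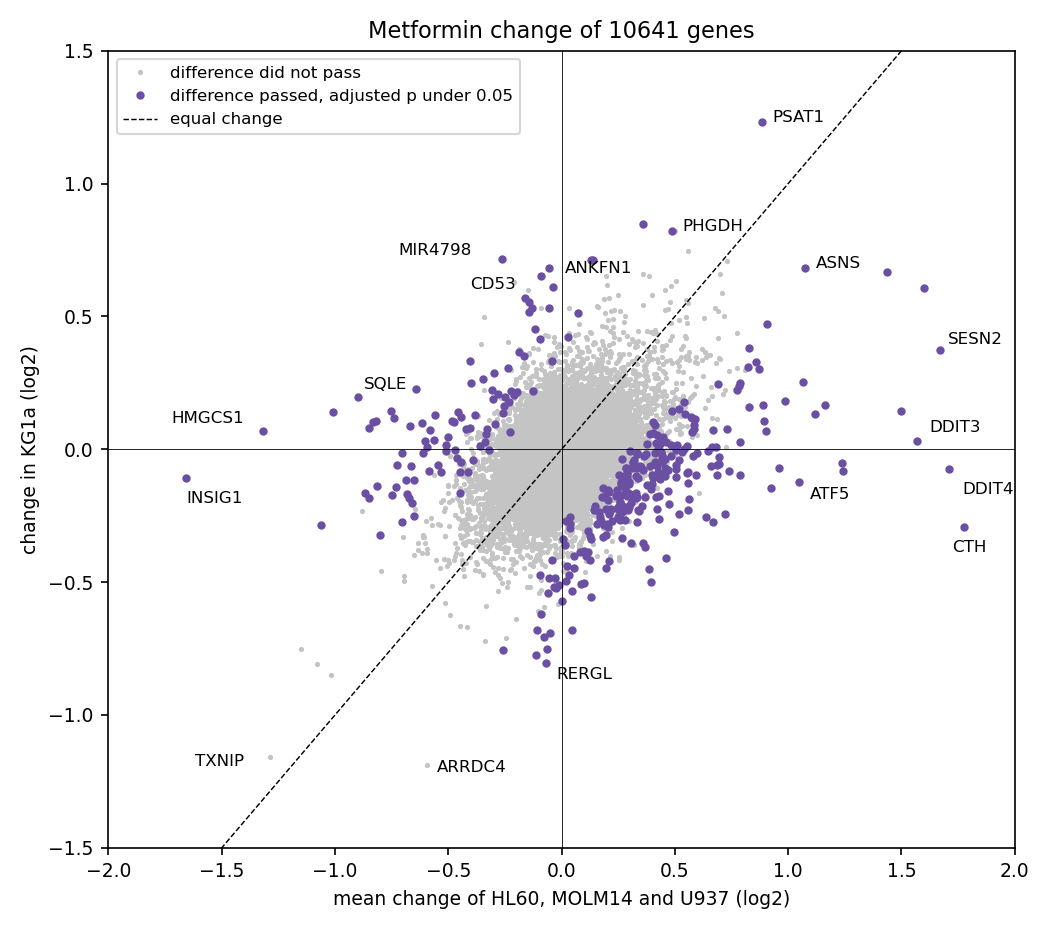
Change with metformin (log2) of 10641 genes in KG1a (vertical) against the mean change of HL60, MOLM14 and U937 (horizontal). Purple points passed the test of the difference, and the dashed line marks equal change. INSIG1 and HMGCS1 lie far left and near 0 on the vertical axis, CTH, DDIT4 and DDIT3 far right and near or below 0, and PSAT1 lies above the dashed line.

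For the ATF4 list the difference passed as lower in KG1a for 16 of 27 genes and as higher for 2. Of all tested genes, 2.43% passed as lower and 0.93% as higher. In 7 of the 27 both KG1a group means were under 4.02, and the part of low signal in these counts was not tested. The median change of the list was 0.19 in KG1a, 1.34 in HL60, 0.46 in MOLM14 and 0.73 in U937. Against single lines, 20 of 27 were lower in KG1a than in HL60, 12 than in U937 and 6 than in MOLM14. CTH differed most, by -2.07 ± 0.15 (limma adjusted p = 3.16e-09), with changes of 2.73, 1.26 and 1.34 in HL60, MOLM14 and U937. DDIT4 followed at -1.79 ± 0.13 and DDIT3 at -1.54 ± 0.14, the latter against 2.42, 0.68 and 1.60 in the same order.

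SESN2, ATF5, STC2, VLDLR and the antisense RNA VLDLR-AS1, whose signal may not be told from that of VLDLR, had differences between -1.03 and -1.32. The histone demethylase KDM7A was at -1.36 ± 0.14 and ERN1, the stress sensor IRE1, at -1.07 ± 0.13. Low signal touches many of these values. DDIT3, KDM7A, STC2, VLDLR and VLDLR-AS1 averaged under 4.02 in both KG1a groups and SESN2 in control KG1a, and the part of low signal in these differences was not tested, while CTH, DDIT4 and ATF5 averaged between 5.01 and 6.14 in KG1a. Of the 10 genes with the largest lower difference, 10 differed from HL60, 9 from U937 and 5 from MOLM14, and 4 from all 3 lines. Of the 10 with the largest higher difference, 8 differed from all 3. Both sets of 10 were picked for their difference from the mean of these lines, so the counts against single lines are not separate support.

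The 2 ATF4 list genes with a higher difference were PSAT1 and PHGDH. PSAT1 rose by 0.89 in HL60, 0.69 in MOLM14 and 1.07 in U937, so the KG1a change was 0.35 ± 0.08 above their mean (limma adjusted p = 0.0152), past the threshold against HL60 and MOLM14 and not against U937 (limma adjusted p = 0.45). PHGDH was 0.33 ± 0.09 above (limma adjusted p = 0.0421), and of the single lines only MOLM14 differed. With centred arrays 1 of these 2 list genes passed. ASNS and WARS1 rose less in KG1a than in the mean of the others, by -0.39 ± 0.10 and -0.44 ± 0.08 (limma adjusted p = 0.0230 and 0.00362), past the threshold against HL60 and, for WARS1, against U937 as well. GARS1 (-0.12 ± 0.09) and AARS1 (-0.22 ± 0.08) did not pass this test of the mean. Against single lines, GARS1 rose less in KG1a than in HL60 (-0.414, limma adjusted p = 0.0247). AARS1 rose less than in HL60 (-0.377, limma adjusted p = 0.0142) and in U937 (-0.375, limma adjusted p = 0.0363).

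**Figure D4:**
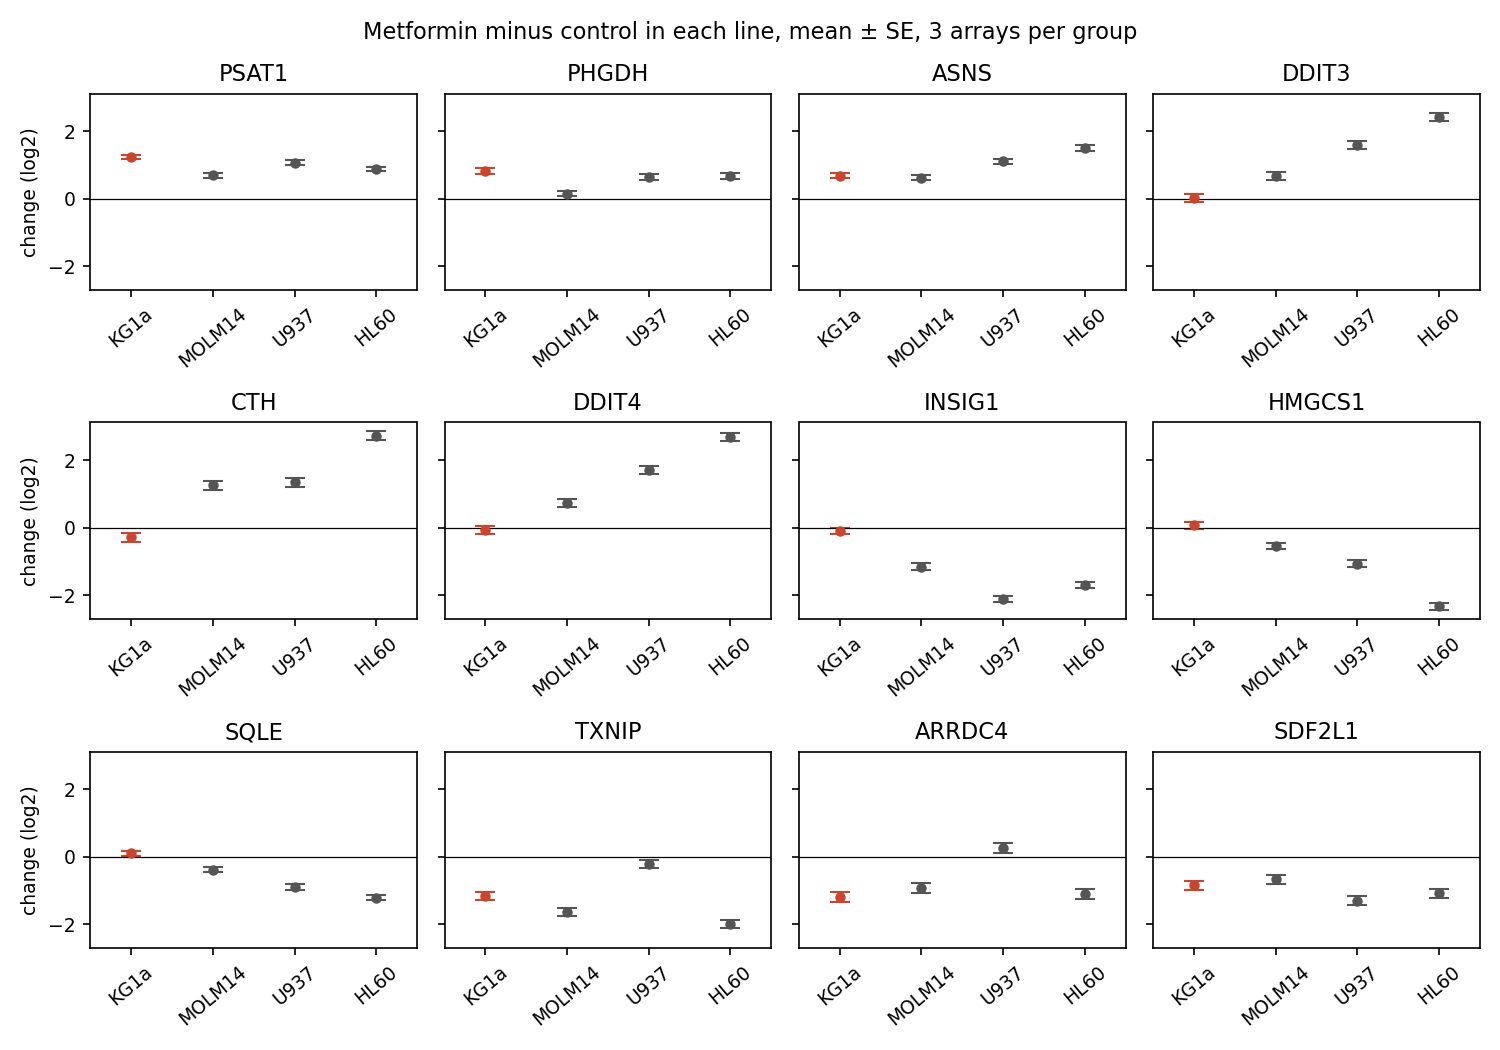
Change with metformin (log2, mean ± SE, 3 arrays per group) of 12 genes in KG1a (red) and in MOLM14, U937 and HL60 (grey). PSAT1 rises in every line, DDIT3, CTH and DDIT4 rise in 3 lines and sit near or below 0 in KG1a, and INSIG1, HMGCS1 and SQLE fall in 3 lines and sit near 0 in KG1a. TXNIP and ARRDC4 fall in KG1a, MOLM14 and HL60.

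For TXNIP and ARRDC4 the other lines were split. TXNIP was at -1.99 in HL60 and -1.64 in MOLM14 but at -0.23 in U937, and ARRDC4 was at -1.11, -0.93 and 0.25. KG1a differed from U937 in both genes (-0.93 and -1.44, limma adjusted p = 0.00246 and 2.21e-04). ARRDC4 was dim in U937, at 3.51 in control and 3.76 in metformin cells, both under 4.02. The part of low signal in its difference was not tested. TXNIP also fell less in KG1a than in HL60, by a difference of 0.82 (limma adjusted p = 0.00238). The KG1a difference from the mean of the 3 did not pass in either. SDF2L1 fell in all 4 lines, and its difference from the mean was 0.17 ± 0.15. Of 25 DNA replication genes, 9 passed as higher in the difference (0.93% of all tested genes did), E2F8 among them (0.48 ± 0.10). By contrast, 0 of 44 mitosis genes and 0 of 74 mitochondrial ribosome genes passed the test of the difference.

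Some genes passed in all of the other 3 lines. Of 108 that passed as higher in HL60, MOLM14 and U937, 17 passed as higher in KG1a (15.7%, against 0.818% of all tested genes). In KG1a 88 of the 108 had a change above 0, with a median of 0.16 against -0.02 for all tested genes. Of 107 that passed as lower in those 3 lines, 24 passed as lower in KG1a (22.4%, against 1.67% of all tested genes). In KG1a 93 of the 107 had a change below 0, with a median of -0.19. Seen from KG1a, 54 of its 87 higher genes also passed as higher in HL60 (62.1% of the KG1a genes and 3.27% of the HL60 genes), 37 in U937 (42.5% and 4.66%) and 26 in MOLM14 (29.9% and 9.85%). The lines differ in their totals, since of all 10641 tested genes 1649 passed as higher in HL60, 794 in U937 and 264 in MOLM14. As lower, 1017 passed in HL60, 1036 in U937 and 274 in MOLM14. The shared percentages of the lines are therefore not directly comparable. Of its 178 lower genes, 71 were shared with HL60 (39.9% and 6.98%), 85 with U937 (47.8% and 8.2%) and 38 with MOLM14 (21.3% and 13.9%), and 11 of the 178 were higher in HL60. No call in any other line was seen for 25 of the 87 higher and 65 of the 178 lower genes.

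A set of KG1a changes had no counterpart among calls in the other lines. Of the 265 genes, 65 also passed the test of the difference and 60 of these had the same sign in both, 18 higher and 42 lower. Of the 60, 41 had passed in no other line, 12 higher and 29 lower. ANKFN1 read 6.67, 6.63 and 6.64 in control and 7.29, 7.34 and 7.35 in metformin KG1a, 2 tight and separate groups, a rise of 0.68 ± 0.09 (limma adjusted p = 1.40e-04), whereas its group means in the other lines were all between 3.51 and 3.65. CD53, a tetraspanin of leukocytes, read 7.85, 8.09 and 7.68 and then 8.59, 8.40 and 8.59, a rise of 0.65 ± 0.10. CD53 was well expressed elsewhere, with control means of 7.38 in HL60 and 8.72 in MOLM14, and its changes there were -0.14 and 0.07, so that the difference of KG1a from the mean was 0.74 ± 0.11 (limma adjusted p = 2.45e-04) and passed against each of the 3 lines.

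LRRC32, ROR1 and VSTM1 were, like ANKFN1, dim outside KG1a, with every group mean in HL60, MOLM14 and U937 at or under 3.72, and RERGL averaged 3.43 to 3.72 there. These levels are near the low end of the scale, and their part in the differences was not tested. LRRC32 (-0.69 ± 0.12), ROR1 (-0.64 ± 0.11) and RERGL (-0.73 ± 0.11) differed from the mean of the others and from each line singly. RERGL also passed as lower in U937 itself (-0.29, limma adjusted p = 0.0383), so it is not a gene without a call elsewhere. HPSE, in contrast, averaged 5.77 in control U937. It was at -0.19 in HL60, -0.29 in MOLM14 and -0.29 in U937 without passing in any of them. The mean change of the 3 lines did pass as lower (-0.26 ± 0.06, limma adjusted p = 0.00209). The difference of KG1a from that mean (-0.50 ± 0.12, limma adjusted p = 0.0230) passed, and of the single lines only HL60 was past the threshold. HUS1B and MIR4798 were likewise past the threshold against HL60 alone.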

How the data were processed

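Total RNA (250 ng) of 24 samples was hybridized to Affymetrix arrays, per the labels' protocols. The authors deposited 1 table of 53617 rows, whose values (1.88 to 14.19, array medians near 4) were read as log2 signals from their range, since the log base is not stated. The submitters' processing notes name Partek. How background was corrected, arrays normalized and probes summarised, and on which build, is not given in the sources used here. GEO's platform annotation names 1 gene for 16098 rows, all matched to RefSeq (GRCh38.p14), and 37519 unnamed rows were left out of the gene tests.

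From these values, limma 3.58.1 (R 4.3.3) fitted 8 group means over 24 arrays (16 residual degrees of freedom) with empirical Bayes moderation. Benjamini-Hochberg adjustment ran over the 10641 genes tested, with a threshold of 0.05. Contrasts were metformin minus control in KG1a, and that minus its mean in the other 3 lines.

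Named genes are the 15 largest rises and 15 largest falls that passed and whose arrays do not overlap, the 10 largest differences each way, up to 4 members of each list by adjusted p, and a chosen set of 30 tested genes. The members and lists were chosen with earlier results of these data known. Of 44 lists, 4 had no row and were not analysed here. Alternatives were other scalings, filters, row rules and moderation, a replicate block, smaller fits and leaving out arrays or lines. The calculations were tested on simulated data. Figures were drawn with matplotlib 3.10.9.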

Additional observations from a re-analysis of the deposited data

Results flagged for a closer look

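The test of the KG1a response against the mean response of HL60, MOLM14 and U937 passed for 358 genes (limma, Benjamini-Hochberg), so these effects of 1 contrast differ between lines. The 10 largest differences with a lower value in KG1a were CTH at -2.07 (log2), DDIT4 at -1.79, DDIT3 at -1.54, KDM7A at -1.36, STC2 at -1.32, SESN2 at -1.3, VLDLR-AS1 at -1.29, ATF5 at -1.17, ERN1 at -1.07 and VLDLR at -1.03. None of these 10 passed in KG1a itself, whereas all 10 passed as changed in HL60, 9 in MOLM14 and 9 in U937. The 10 were picked for their difference from these same lines, so this pattern of calls is not separate support. DDIT3, KDM7A, STC2, VLDLR and VLDLR-AS1 averaged under 4.02 in both KG1a groups, and the part of low signal was not tested. The 10 largest with a higher value were INSIG1 at 1.55, HMGCS1 at 1.38, MSMO1 at 1.15, ACAT2 at 1.1, MIR4798 at 0.98, SQLE at 0.94, ANXA1 at 0.93, IDI1 at 0.93, DHCR7 at 0.9 and EMP3 at 0.87. MIR4798 is the 1 of these that passed in KG1a.

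Signal was also present in array rows that carry no gene name and enter no comparison of genes. Of 21285 such rows bright enough to test, 221 passed in KG1a (1.04%, limma, Benjamini-Hochberg over named and unnamed rows), 121 higher and 100 lower, against 168 of 11464 named rows (1.47%) in the same fit.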

How the results depend on the processing

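No named gene that passed changed sign under the alternatives run, but the excess of lower over higher genes did not hold without control array A, without metformin array A or in the fit of the KG1a arrays alone. The 265 genes that passed in KG1a became 133 with the array letter as a replicate block, 83 in a fit of the 6 KG1a arrays alone, 97 to 170 without 1 KG1a array, and 470 without the 3 arrays of other lines that stand apart, an alternative chosen after seeing the data. The other 7 alternatives gave 190 to 339. The 358 genes of the difference became 142 with HL60 left out of the mean, 621 with MOLM14 left out and 186 to 263 without 1 KG1a array, and 293 to 427 under its other settings but the block. The smaller fits hold fewer arrays, and the cause of the other shifts was not tested. Deviations of same-letter KG1a arrays correlated at 0.006 to 0.06, within the range of different-letter arrays (-0.117 to 0.074). The labels do not say whether a shared letter pairs arrays, and these weak correlations cannot settle it. The block gave 241 for the difference and kept the calls of all 30 genes with the largest changes. Of those 30, 23 passed in every leave-out of 1 KG1a array, and MIR4798, MIR628, STAG3L1, LY96, SNAR-B1, ZNF878 and RP9P did not. ULBP1, which missed the threshold, passed with the block (limma adjusted p = 0.0299). Signals near or under 4.02 limit what can be said of a gene.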
